A study of Homo sapiens with 4 samples.

Results

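Elastic fibres are built on microfibrils of fibrillin, onto which elastin is laid with the help of fibulins and then crosslinked by lysyl oxidases. 10 genes of this machinery were taken from a named list and followed in U87MG cells, out of 57905 genes in each count table. They were 5 fibulins (*EFEMP1*, *EFEMP2*, *FBLN1*, *FBLN2* and *FBLN5*), 2 fibrillins (*FBN1* and *FBN2*) and 3 lysyl oxidases (*LOX*, *LOXL1* and *LOXL2*). *EFEMP1* is the member that the study picked out among genes lowered by chaetocin. The list follows gene families and sets no threshold on measured values, but *EFEMP1* was already known to be lower in these samples, so its call is not independent evidence about the list.

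U87MG is an established glioblastoma line, labelled wild type for genotype and used here at passages 8-10. RNA was sequenced from 2 untreated samples and 2 samples given 50 nM chaetocin in DMSO for 24 h, where chaetocin is a fungal metabolite that inhibits histone methyltransferases and raises reactive oxygen species. The labels state no DMSO for the untreated cells, so the solvent and chaetocin cannot be told apart. Nothing in the labels says that samples of a group came from separate cultures, and p-values then measure only the spread between these samples.

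Fibrillins are long glycoproteins that polymerize into microfibrils and hold latent TGF-beta in the matrix. Fibulins are smaller linkers with calcium-binding EGF repeats that join elastin, microfibrils and cell-surface receptors. Lysyl oxidases are secreted copper enzymes that oxidize lysines of elastin and collagen so that the fibres crosslink, and in glioma such matrix genes are known from mesenchymal tumour cells and vessel walls.

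Total counts ranged from 21241984 to 32590479 per sample, and levels are given as CPM, reads scaled to a common library total, after TMM normalization, which adjusts for library composition. Chaetocin replicate 2, the deepest library, had reads for 27748 genes, against 24174 to 24699 in the others, and the part of this in the results was not tested. A floor of 3 reads stood for 0.0844 to 0.138 CPM. The floor covers counting error only, since PCR copies were counted as reads, whereas the confidence intervals of fold changes include the spread between samples. *HMOX1*, a heme-degrading antioxidant enzyme that the study examined further, rose by 3.05 on the log2 scale (edgeR quasi-likelihood test, adjusted p = 0.00358). Of the astroglial markers, *AQP4* had 0 reads in all 4 samples, *SOX2* and *S100B* had 0 reads in both controls, and *GFAP* lay between 0.46 and 1.02 CPM, whereas *VIM* lay between 1148 and 2797 CPM. The 10 glioma and astroglial markers summed to 5553 and 4844 CPM in the controls and 3247 and 1996 CPM with chaetocin, nearly all of it from *VIM* and *CD44*. Among the 7 tested, 6 had log2 fold changes below 0 and 1 above (*SLC1A2*), edgeR called 1 lower (*SLC1A3*) and DESeq2 called 3. The 8 fibroblast and mural markers summed to 1495 and 1050 CPM in the controls and 951 and 523 CPM with chaetocin, nearly all of it from *COL1A1* and *COL1A2*. Of the 7 tested, 4 had log2 fold changes below 0 and 3 above, edgeR called 1 lower (*PDGFRB*) and DESeq2 called 2. The part of these markers in the results was not tested. The 7 leukocyte markers summed to at most 2.73 CPM in any sample, with *CD3E* and *TYROBP* at 0 throughout, and 2 of the 3 tested were called higher by edgeR and by DESeq2 (*PTPRC* and *ITGAM*, 0 or 1 read in each control and 15 to 29 with chaetocin). Endothelial markers summed to 7.54 to 14.3 CPM and epithelial markers to 2.26 to 4.46 CPM, where edgeR called none of those tested and DESeq2 called 1 endothelial marker lower. In bulk RNA, fewer cells that express a gene and less of its RNA per cell cannot be told apart.

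Of the 10 genes, *EFEMP1* passed the test, and it fell. The count is 1 of 10, beside 0.743% of the 16416 genes tested that were called lower, at an adjusted p under 0.05. None of the 10 was called higher, where the share over all genes was 1.11%. Before adjustment, 5 of the 10 had a p under 0.05 and were lower (*EFEMP1*, *FBN1*, *FBN2*, *LOXL1* and *LOXL2*), against 9.43% of all genes. On the upper side 1 did (*FBLN5*), against 10.9%. Both chaetocin samples lay below both controls for 5 of the 10, against 26.0% of all genes tested, and above both controls for 2 (*FBLN1* and *FBLN5*), against 26.8%. The median log2 fold change of the 10 was -0.55, beside 0.008 over all genes tested, and 8 of the 10 were below 0, beside 49.1% of all genes. All 10 passed the filter on low counts.

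**Figure D1:**
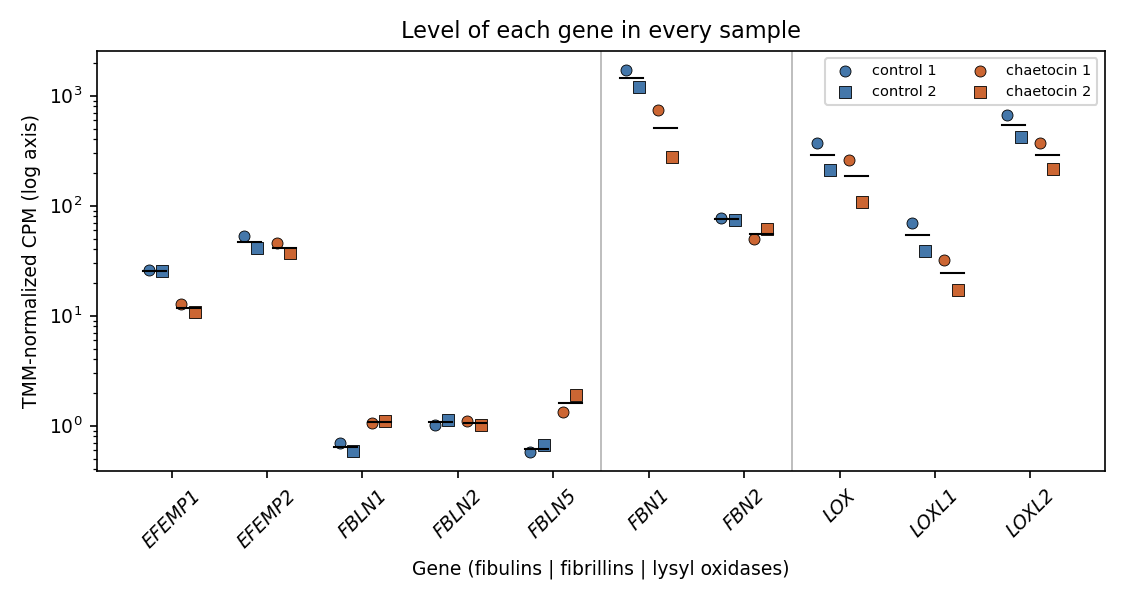
TMM-normalized CPM on a log axis for each of the 10 genes in the 2 control samples (blue) and the 2 chaetocin samples (orange), with circles for replicate 1, squares for replicate 2 and black bars for group means. The groups are apart and tight for *EFEMP1*, and apart but widely spread for *FBN1*, which runs from 275 to 1715 CPM.

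The genes differed widely in level. Per kilobase of annotated exon, *LOXL2* (mean 95.1 CPM per kb) and *FBN1* (90.5 CPM per kb) were the most abundant of the 10 in control cells, followed by *LOX* at 52.3 CPM per kb. The samples of these 3 genes overlapped with those of their neighbour only for *LOXL2* and *FBN1*, whose controls ran from 73.0 to 117 and from 74.1 to 107 CPM per kb. *LOXL1* (15.0 CPM per kb), *EFEMP2* (8.74), *EFEMP1* (6.47) and *FBN2* (5.71) formed a middle range in control cells. *FBLN2* (0.222 CPM per kb), *FBLN5* (0.124) and *FBLN1* (0.0884) were far below them. With chaetocin the mean of *FBN1* was 31.4 CPM per kb, next to *LOX* at 33.3, and the samples of both overlapped, and *EFEMP1* stood at 2.99, below *FBN2* at 4.20. Exon lengths came from GENCODE v29, and with the longest transcript in place of all exons 4 genes changed place in either group, *EFEMP2* then standing above *LOXL1* in control cells and *FBN1* above *LOX* with chaetocin.

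Among the fibulins, *EFEMP1* (ENSG00000115380) encodes fibulin-3, an extracellular glycoprotein known to be secreted by glioma cells. Its level was 25.8 and 25.5 CPM in the control samples and 12.8 and 10.9 CPM in the chaetocin samples, from 629, 733, 278 and 387 reads. The samples within each group lay close together and the groups were well apart. The mean went from 25.6 ± 0.187 to 11.8 ± 1.33 CPM (SD, n = 2 per group). On the log2 scale the difference was -1.12 with a standard error of 0.18 (edgeR adjusted p = 0.0306). The 95% confidence interval of this 2.17-fold lower level ran from 1.64-fold to 2.87-fold. *EFEMP1* ranked 103 of 16416 genes by p-value.

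*EFEMP2* (ENSG00000172638), whose product fibulin-4 binds lysyl oxidase and is needed for elastic fibres to form, had 53.0 and 41.4 CPM in the controls and 45.7 and 37.4 CPM with chaetocin. These groups overlapped. The log2 fold change was -0.18 (95% confidence interval -0.60 to 0.23), and its interval did not reach the point estimate of *EFEMP1*. Within each library, where no scaling enters, there were 0.487 and 0.617 reads of *EFEMP1* per read of *EFEMP2* in the controls and 0.280 and 0.291 with chaetocin. The ratio was lower in both treated samples, with p = 0.333 in a two-sided exact permutation test, the smallest that 2 against 2 samples allow. Of the 5 within-library ratios computed, none was below a Benjamini-Hochberg adjusted p of 0.555. Per read of *FBN1*, *EFEMP1* had 0.0150 and 0.0214 reads in the controls and 0.0174 and 0.0396 with chaetocin, so that the groups overlapped and the mean log2 ratio was 0.55 higher with chaetocin (p = 0.667, two-sided exact permutation test).

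The remaining fibulins had few reads, between 14 and 68 per sample, though above the floor of 3 reads. *FBLN5* (ENSG00000140092) encodes fibulin-5, which tethers elastin to microfibrils and binds integrins. It had 14 and 19 reads in the controls and 29 and 68 reads with chaetocin, or 0.574 and 0.661 against 1.33 and 1.91 CPM. Both treated samples were above both controls, and the log2 fold change of 1.40 (standard error 0.43) did not pass the threshold (edgeR adjusted p = 0.124). *FBLN1* (ENSG00000077942), a fibulin of basement membranes and elastic fibres, had 17 and 17 reads in the controls and 23 and 39 with chaetocin. Its CPM of 0.697 and 0.592 against 1.06 and 1.10 did not overlap either, with a log2 fold change of 0.74 (95% confidence interval -0.27 to 1.76). *FBLN2* (ENSG00000163520), a larger fibulin of vessel walls and developing heart valves, had between 24 and 36 reads in every sample and a log2 fold change of -0.02 (95% confidence interval -0.94 to 0.90), and its sign turned under other settings. At this depth the interval of *FBLN2* takes in levels from 1.92-fold lower to 1.86-fold higher.

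**Figure D2:**
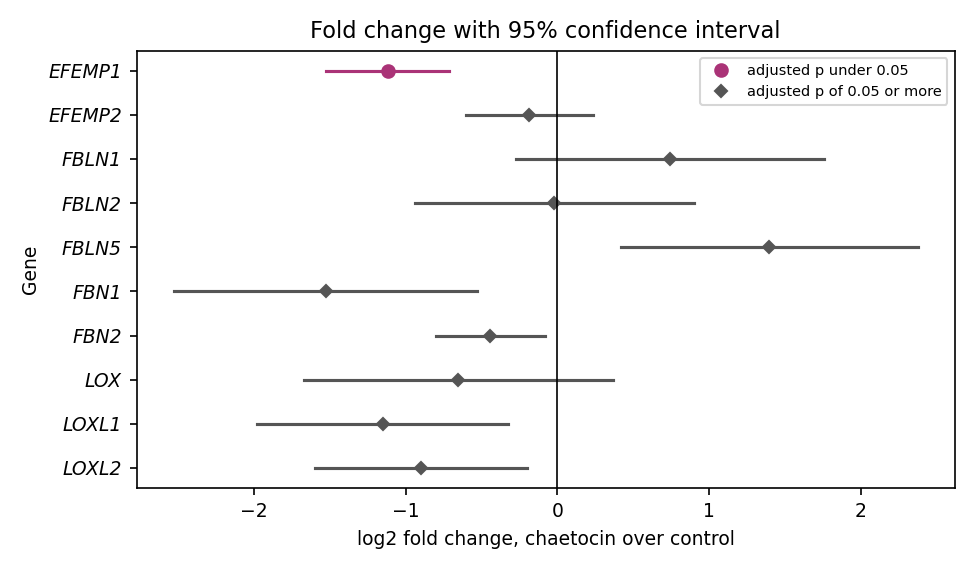
Log2 fold change of chaetocin over control for each of the 10 genes, with its 95% confidence interval (horizontal line). *EFEMP1* is marked as having an adjusted p under 0.05, and *FBN1* has the lowest estimate (-1.53) with an interval from -2.53 to -0.53.

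The fibrillins were far apart in level, and both had lower means with chaetocin. *FBN1* (ENSG00000166147) encodes fibrillin-1, the main microfibril protein of adult tissue, altered in Marfan syndrome. It took 57.5% and 59.6% of the summed CPM of the 10 genes in the controls and 48.6% and 37.9% with chaetocin. Its level was 1715 and 1190 CPM in the controls and 733 and 275 CPM in the chaetocin samples. Both treated samples were below both controls, and they differed from each other 2.66-fold. The log2 fold change was -1.53 ± 0.43 (SE; edgeR adjusted p = 0.111), a lower estimate than that of *EFEMP1* with a standard error more than double in size. With 1 sample left out, the log2 fold change of *FBN1* was -1.25 without control replicate 1 and -1.78 without control replicate 2. It was -2.40 without chaetocin replicate 1 and -0.995 without chaetocin replicate 2. In these fits the lone sample of a group is assumed to vary like the pair, so only the estimates of *FBN1* are given.

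*FBN2* (ENSG00000138829) encodes fibrillin-2, which predominates in developing tissue. It had 76.8 and 74.0 CPM in the controls and 49.9 and 61.1 CPM with chaetocin. The groups did not overlap, and the log2 fold change was -0.44 ± 0.16 (SE; edgeR adjusted p = 0.167). Without chaetocin replicate 2 it was -0.60, and with any other sample left out it lay between -0.48 and -0.30. Within libraries there were 22.3 and 16.1 reads of *FBN1* per read of *FBN2* in the controls and 14.7 and 4.51 with chaetocin. The treated ratios lay below both control ratios, again with the smallest p the design allows (0.333, two-sided exact permutation test).

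The windows just upstream of the fibrillin genes are shown because *FBN1* had the lowest estimate of the 10 and *FBN2* is its close paralogue. They come from the RefSeq promoter table on GRCh38.p14, which holds windows for 8 of the 10 genes (all but *EFEMP1* and *LOXL2*). Each gives the 250 bases before the start site in that table, 5′ to 3′ on the gene's strand. Capitals mark the GC box GGGCGG or its reverse complement. The *FBN1* window is chr15:48644971-48645220 and the *FBN2* window is chr5:128538246-128538495, both on the minus strand and free of annotated exons.
FBN1: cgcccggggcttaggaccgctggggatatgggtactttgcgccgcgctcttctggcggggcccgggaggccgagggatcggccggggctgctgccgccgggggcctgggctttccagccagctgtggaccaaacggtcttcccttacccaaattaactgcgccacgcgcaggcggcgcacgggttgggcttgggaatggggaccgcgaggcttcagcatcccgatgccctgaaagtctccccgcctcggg
FBN2: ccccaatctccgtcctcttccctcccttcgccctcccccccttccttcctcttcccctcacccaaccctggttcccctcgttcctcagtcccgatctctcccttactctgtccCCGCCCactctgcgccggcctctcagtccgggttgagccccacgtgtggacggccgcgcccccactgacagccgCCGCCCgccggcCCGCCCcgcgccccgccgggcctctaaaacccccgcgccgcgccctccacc
G and C made up 69.6% of the *FBN1* window and 72.8% of the *FBN2* window, against a median of 58% over 35116 windows, and each held 25 CG dinucleotides against a median of 11. The GC box matched 3 times upstream of *FBN2* and 0 times upstream of *FBN1*, and 42.6% of all windows held it on either strand. It was present in 7 of the 12 windows of the 8 genes. *FBLN2*, *FBLN5* and *LOX* had more than 1 window, and windows of *LOX* overlapped, so the 12 are not independent. Outside *FBN1*, *FBN2* and *FBLN2*, the windows held from 51 annotated exon bases (*FBLN1*) to all 250 (*LOXL1*). The AP-1 motif TGANTCA matched in 0 of the 12, where 6.57% of all windows had a match. The core of the antioxidant response element, TGACNNNGC, matched in 3 of 12 against 10.9% of all windows, and those 3 belonged to *FBLN2* and *FBLN5* alone. The TATA box TATAAA matched in 1 of 12 against 10.7%. These 4 motifs were searched on both strands, and a match describes the letters only.

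The 3 lysyl oxidases had lower means with chaetocin, and none passed the threshold in the edgeR fit with the filter on low counts and without a replicate block (adjusted p from 0.134 to 0.445). Without the filter, edgeR called *LOXL1* (adjusted p = 9.89e-07) and *LOXL2* (adjusted p = 5.70e-05) lower, at log2 fold changes of -1.17 and -0.918. That fit called 759 of all genes lower, against 122 with the filter. *LOXL2* (ENSG00000134013), which crosslinks basement membrane collagen, had 668 and 417 CPM in the controls and 369 and 213 CPM with chaetocin. The groups did not overlap, although the lower control was close to the higher treated sample, and the log2 fold change was -0.90 ± 0.30 (SE; edgeR adjusted p = 0.153). *LOXL1* (ENSG00000129038), an oxidase tied to elastic fibre upkeep, had 69.9 and 39.0 CPM in the controls and 32.3 and 17.0 CPM with chaetocin. Its groups were likewise apart, with a log2 fold change of -1.15 ± 0.35 (SE; edgeR adjusted p = 0.134). *LOX* (ENSG00000113083), the founding enzyme of the family, had 372 and 209 CPM in the controls and 262 and 107 CPM with chaetocin, so the groups overlapped. Its log2 fold change was -0.65 with a 95% confidence interval from -1.67 to 0.37.

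The samples of a group spread widely for all 3 oxidases, with replicate 1 the higher in both groups. The higher control was 1.78 times the lower for *LOX*, 1.79 times for *LOXL1* and 1.60 times for *LOXL2*, and the chaetocin samples differed 2.44-fold, 1.90-fold and 1.73-fold. For *EFEMP1* the same ratios were 1.01 and 1.17. Within libraries there were 0.105 and 0.0937 reads of *LOXL1* per read of *LOXL2* in the controls and 0.0875 and 0.0798 with chaetocin (p = 0.333, two-sided exact permutation test). The reads of *LOX* per read of *LOXL2* overlapped between groups, at 0.556 and 0.502 in the controls and 0.711 and 0.504 with chaetocin (p = 0.667, two-sided exact permutation test).

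DESeq2, the tool of the study, used here with its Wald test, called *EFEMP1*, *LOXL1* and *LOXL2* lower among the 10, against 2.81% of all genes, with adjusted p-values of 0.000158, 0.00952 and 0.0261. Its adjusted p for *FBN1* was 0.228. With edgeR, the log2 fold changes without control replicate 2 were -1.52 for *LOXL1* and -1.21 for *LOXL2*, and without chaetocin replicate 1 they were -1.675 and -1.346. Without control replicate 1 the estimates were -0.68 for *LOXL1* and -0.53 for *LOXL2*, and without chaetocin replicate 2 they were -0.76 and -0.57. With 1 sample left out, the estimate of *FBLN5* ran from 1.093 to 1.625 and that of *EFEMP1* from -1.23 to -1.01.

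**Figure D3:**
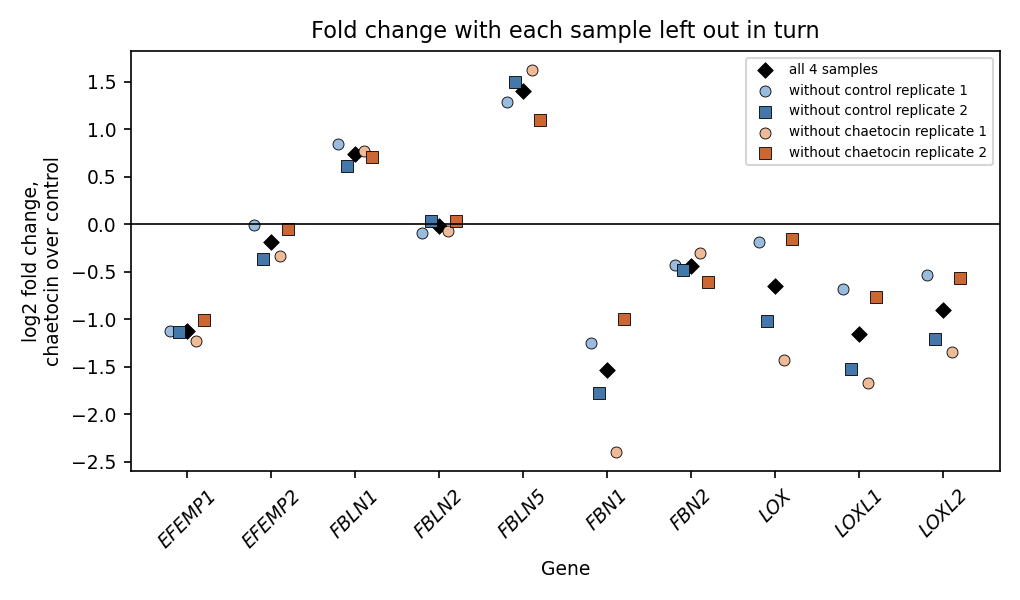
Log2 fold change of chaetocin over control for the 10 genes from all 4 samples (black diamonds) and with each sample left out in turn (coloured symbols). The values of *EFEMP1* stay between -1.23 and -1.01, while those of *FBN1* run from -2.40 to -0.995 and those of *LOX* from -1.43 to -0.15.

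**Figure D4:**
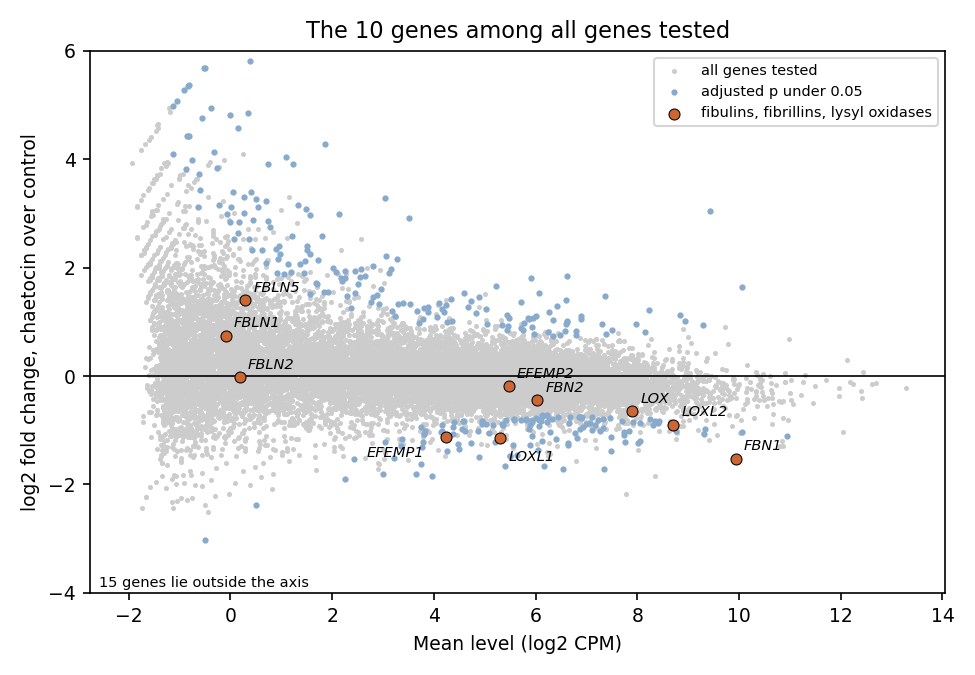
Log2 fold change of chaetocin over control against mean level in log2 CPM for all 16416 genes tested (grey), genes with an adjusted p under 0.05 (blue) and the 10 genes (orange), with 15 genes outside the axis. *FBN1* has the highest CPM of the 10, without regard to length, and the lowest fold change among them, and *FBLN1*, *FBLN2* and *FBLN5* lie near 1 CPM.

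Some reads may belong to overlapping genes, since the strand setting of the counting is not given in the sources used here. *ENTPD4* lies on the same strand as *LOXL2*, so a strand setting would not separate the bases they share. In GENCODE v29 the antisense gene *LOXL1-AS1* shares 9.21% of the exon bases of *LOXL1*, and it had 954 and 798 reads in the controls and 620 and 711 with chaetocin. *SRFBP1* shares 2.49% of the exon bases of *LOX*, *AC090197.1* shares 3.12% and *ENTPD4* 2.1% of those of *LOXL2*, and no overlap above 0.424% was found for the other 7 genes. Their part in the differences was not tested.

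A wider list of 39 genes covered the rest of the elastic-fibre machinery, of which 30 had enough reads to be tested. *ELN*, which encodes elastin itself, was not among them, with 5 and 4 reads in the controls and 7 and 6 with chaetocin. At an adjusted p under 0.05, edgeR called 0 of the 30 lower and 0 higher. Before adjustment 8 of 30 had a p under 0.05 and were lower, beside 9.43% of all genes, and 1 was higher, beside 10.9%. DESeq2 called 4 lower, beside 2.81%, and 0 higher. The median log2 fold change was -0.26, beside 0.008 over all genes tested, and 20 of 30 genes were below 0, beside 49.1%. Both treated samples lay below both controls for 13 genes, beside 26.0% of all genes tested, and above both for 5, beside 26.8%.

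The lowest estimates of the wider list were those of *LOXL4*, *LTBP1* and *EMILIN2*. *LTBP1*, a latent TGF-beta binding protein that sits on fibrillin microfibrils, had 645 and 561 CPM in the controls and 360 and 176 CPM with chaetocin, a log2 fold change of -1.17 ± 0.31 (SE; edgeR adjusted p = 0.0891). With 1 sample left out, its log2 values ran from -1.78 without chaetocin replicate 1 to -0.75 without chaetocin replicate 2. *EMILIN2*, a microfibril-associated glycoprotein, had 6.23 and 4.98 CPM in the controls and 2.67 and 2.48 CPM with chaetocin. Its log2 fold change was -1.12 (edgeR adjusted p = 0.0719), and -1.29 to -0.97 with 1 sample left out. Neither gene's groups overlapped. *LOXL4*, another lysyl oxidase, rested on 27, 12, 4 and 12 reads, with an estimate of -1.46 on the log2 scale (edgeR adjusted p = 0.271; -2.03 to -0.64 with 1 sample left out).

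At the other end, *TLL1*, *FBLN7* and *EMILIN1* had few reads. *TLL1*, a tolloid-like protease that can process lysyl oxidase precursors, had 3 and 6 reads in the controls and 8 and 28 with chaetocin (log2 fold change 1.80, adjusted p = 0.196). *FBLN7* had 10 and 7 against 32 and 11 reads, and *EMILIN1* had 10 and 3 against 11 and 21 reads. Adjusted p-values were 0.371 for *FBLN7* and 0.405 for *EMILIN1*, and the sign of *FBLN7* turned without chaetocin replicate 1 (log2 fold change -0.06).

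By role, the family members outside the 10 had 5 tested genes with a median log2 fold change of -0.18. The elastin and microfibril-associated group had 5 tested genes with a median of -0.09, and the LTBP and TGF-beta ligands had 7 with a median of -0.42. The processing factors had 8 with a median of -0.24, and the ADAMTS and ADAMTS-like proteins had 4 with a median of -0.08. *FN1*, the fibronectin scaffold on which fibrillin assembles, was the tested gene of its group, at 6473 and 4835 CPM in the controls and 3496 and 2023 CPM with chaetocin (log2 fold change -1.03, adjusted p = 0.114). The genes called by DESeq2, named here after their values were seen, were *FN1*, *LTBP1*, *EMILIN2* and *MFAP4*, the last a microfibril-associated protein at 41.1 and 28.4 against 21.2 and 13.4 CPM (edgeR adjusted p = 0.0849).

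**Figure D5:**
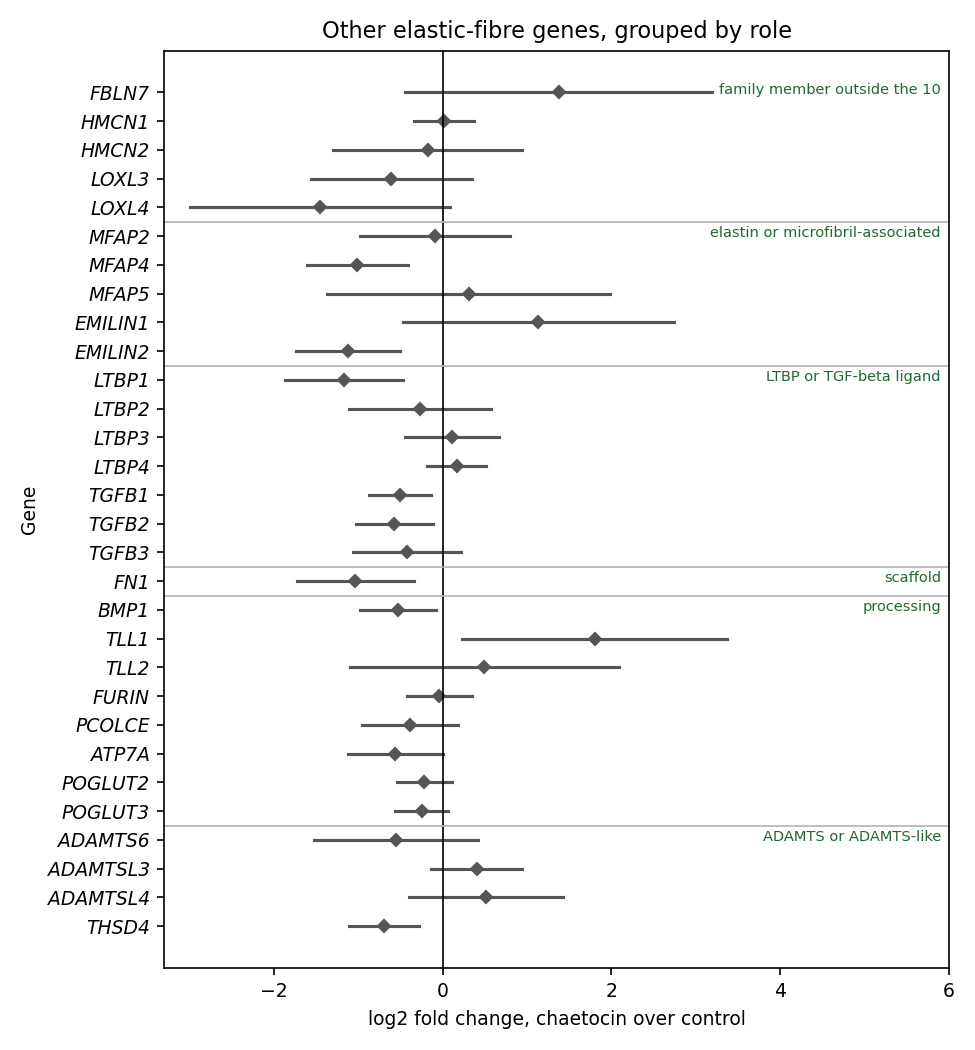
Log2 fold change of chaetocin over control with its 95% confidence interval for the 30 tested genes of the wider list, grouped by role. None has an adjusted p under 0.05 with edgeR, and the estimates run from -1.46 for *LOXL4* to 1.80 for *TLL1*.

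The 3 genes nearest to *EFEMP1* in their centred log2 CPM over the 4 samples, among 16415 others, were *BTN3A3*, *CSMD2* and *MEST*, at Euclidean distances of 0.0292, 0.067 and 0.0735. Their log2 fold changes were -1.15, -1.14 and -1.16. With 4 samples this likeness describes these libraries only, and the 3 genes were chosen by it.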

How the data were processed

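RNA was sequenced from 2 control and 2 chaetocin samples of U87MG cells as 50 bp single-end reads after polyA selection. The deposited values are raw counts per Ensembl gene, with no normalization. The submitters' processing notes name cutadapt, TopHat2, TopHat and SAMtools and the GRCh37 build, and the counting tool and strand setting are not given in the sources used here. Totals were 21241984 to 32590479 counts per sample. Symbols were matched through a names table to all 10 genes and to all 39 genes of the wider list, and exon lengths came from GENCODE v29 on GRCh38.

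Counts were filtered with filterByExpr (minimum count of 10), normalized by TMM and tested with edgeR 4.0.16 in R 4.3.3 (robust quasi-likelihood fit, no block), with Benjamini-Hochberg adjustment over 16416 genes and a threshold of 0.05. Each gene's F statistic gave the standard error. The test was tested on simulated data. DESeq2 1.42.0 and other settings served as alternatives. Members and lists were chosen with earlier results of these data known. Named genes were the 10 members, *HMOX1*, the 3 highest and 3 lowest and any called genes of the wider list, and the 3 nearest to *EFEMP1*. Marker genes, overlapping genes, *ELN*, *FN1* and *MFAP4* fall outside this rule and were named after their values were seen. Length of the longest transcript was added as an alternative after the data were seen.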

Additional observations from a re-analysis of the deposited data

How the results depend on the processing

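*EFEMP1* was called lower in every alternative that refitted the model with all 4 samples, with log2 fold changes from -1.14 to -1.04. With 1 sample left out its estimate ran from -1.23 to -1.01. The other 9 genes, *HMOX1* and the 6 named extremes of the wider list kept their direction in the fits that tested them, except for *FBLN2*, at 0.057 with upper-quartile factors 0.00 when each sample had to hold at least 10 counts, and between -0.091 and 0.036 with a sample left out, and *FBLN7*, between -0.061 and 2.16 with a sample left out. The cause was not tested. *LOXL4*, *EMILIN1*, *FBLN7* and *TLL1* were not tested with at least 10 counts per sample, nor was *TLL1* without chaetocin replicate 2. Apart from DESeq2 for *FN1* and *MFAP4*, no alternative is reported for *FN1*, *MFAP4*, *BTN3A3*, *CSMD2* and *MEST* as single genes.

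Of the 10 genes, 3 were called lower without a filter on low counts and 3 with DESeq2, and 5 at an unadjusted p under 0.05, where 1 was higher. With a sample left out, 2 to 4 were lower and 0 to 1 higher. In the wider list, lower calls were 6 without a filter, 4 with DESeq2 and 8 at an unadjusted p (1 higher), and 1 to 12 with a sample left out. Over all genes, higher and lower calls, 182 and 122 in the fit of the report, were 787 and 759 without a filter, 114 and 80 when each sample had to hold at least 10 counts, 447 and 461 with DESeq2 and 1791 and 1548 at an unadjusted p. Upper-quartile factors gave 246 and 88, and moved the median of all genes from 0.008 to 0.085. With a sample left out, 215 to 1332 were higher and 97 to 1673 lower.

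Replicate numbers are shared by the groups, and nothing in the labels says that they mark a batch. The replicate 2 minus replicate 1 differences correlated across genes between groups with r = 0.191. Replicate 1 was the higher in both groups for *EFEMP1*, *EFEMP2*, *FBN1*, *LOX*, *LOXL1* and *LOXL2*, but not for *FBLN1*, *FBLN2*, *FBLN5* and *FBN2*. In replicate order, the summed CPM of the 10 genes was 2982 and 1998 in the controls and 1508 and 726 with chaetocin. The cause of this shared direction was not tested. A replicate block gave 1036 higher and 1053 lower genes, and 6 of the 10 genes were lower (*EFEMP1*, *FBN1*, *FBN2*, *LOX*, *LOXL1* and *LOXL2*) and 10 of the wider list were lower. The log2 fold change under the block was -1.12 for *EFEMP1* and -1.67 for *FBN1*.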
